A study of Gallus gallus with 2 samples.

Results

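TP63, TFAP2A, DLX3, DLX5, DLX6, EN1 and EMX1 are transcription factor genes known from the ectoderm that covers the embryo, and they were taken as a named set of 7 among the 28190 gene columns of a single-cell table. All 7 had a column. The table came from the posterior end (tail) of wild-type (WT) chicken (Gallus gallus) embryos at 35 somites, after 72 h of incubation. The embryos were controls or had been treated with homocysteine, 20 uL at 19 mM (high dose) or at 0.5 mM (low dose). Dissociated cells were tagged by tissue of origin with lipid-modified oligonucleotides, DNA barcodes that sit in the cell membrane, then pooled and captured on BD Rhapsody, a microwell system that pairs each cell with a barcoded bead. The labels assign no treatment to any barcode and give no number of embryos, so the table was read as 1 pooled sample without replicates. No p-value is given, controls and treated embryos were not compared, and every interval below is a 95% interval of counting error only.

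The surface ectoderm is the outer epithelium from which the epidermis forms. TP63 encodes p63, a p53-family factor that the epidermis needs to become stratified, and mice without it have no stratified epidermis and truncated limbs. TFAP2A acts early in both surface ectoderm and neural crest. The DLX genes are homeobox genes of the non-neural ectoderm, and DLX5 and DLX6 lie side by side as a linked pair. EN1 marks the ventral ectoderm of the limb bud, where WNT7A marks the dorsal side, and EMX1 is best known from the dorsal forebrain of the mouse.

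On the GRCg7b assembly, by RefSeq, TP63 lies on chromosome 9 at 13741157-13844545 and spans 103389 bases. TFAP2A is at 63017677-63033999 on chromosome 2 and overlaps LOC101749691, so reads from the shared stretch could have been assigned to either gene. DLX6 (24346981-24350502) and DLX5 (24355474-24357757) are neighbours on chromosome 2, with 4971 bases between the end of DLX6 and the start of DLX5. DLX3 is on chromosome 27 at 2815817-2819565, next to DLX4, which had no column under that name. EN1 is on chromosome 7 at 28136121-28139219 and EMX1 on chromosome 4 at 89440125-89448956. Apart from TFAP2A, none of the 7 overlapped another RefSeq gene.

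The table held 60000 barcodes, of which 15494 had at least 4000 gene molecules and were kept. They had a median of 25928.5 molecules and 5734 genes, and each of the 15494 also carried lipid barcode molecules. Clusters were built without the 7 genes and named from marker lists. Of 31 clusters, 24 were named in 14 classes, which left 2467 cells unnamed at a median of 8371 molecules. Surface ectoderm-like cells numbered 1865, or 12.0% of cells (11.5 to 12.6%), in 4 clusters. Of the 9 marker genes with a column, 7 were higher in them than in all other cells, from 6.86-fold for GRHL3 to 82.2-fold for WNT6, while KRT7 (1.16-fold) and KRT18 (1.13-fold) were near equal. Scrublet, which scores cells for resemblance to artificial mixtures of 2 cells, called 1998 cells (12.9%). Among the calls were 670 of 755 cells in a neural tube-like cluster and 369 of 724 in a somite-like cluster. Both clusters stayed in their classes and in all other cells. One group of 322 surface ectoderm-like cells, led by MEOX1 and FOXC2, held 303 of those calls at a median of 53602 molecules, which means that 94.1% of its cells were called. Its somite markers summed to 857 CPM against 28.8 to 79.6 CPM in the other 7 sub-clusters. The class levels, ratios, ranks and molecule shares below include this group. Without it, the 1543 remaining cells had TP63 at 199 CPM, TFAP2A at 542, DLX5 at 485 and DLX3 at 106.6 CPM. DLX6 was at 26.5, EMX1 at 80.4 and EN1 at 253 CPM. Each of these levels lies above the interval given below with the group. The ratios and ranks are not given without it. Some shares, pair ratios and gene differences are given both ways.

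All 7 genes reached their highest level among the 14 named classes in surface ectoderm-like cells, by CPM, the molecules of a gene per 1000000 molecules of the class. Set against all other cells, the 7 were 10.5-fold (EMX1) to 28.7-fold (DLX3) higher. Of 18991 genes with at least 100 molecules, 1233 (6.49%) were at least 2-fold higher in surface ectoderm-like cells and 1409 (7.42%) at least 2-fold lower. By that ratio DLX3 ranked 28, EN1 33, DLX6 68, TFAP2A 84, TP63 85, DLX5 110 and EMX1 130. Surface ectoderm-like cells held 60.6% (EMX1) to 80.7% (DLX3) of the molecules of each gene while making up 12.0% of the cells.

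**Figure D1:**
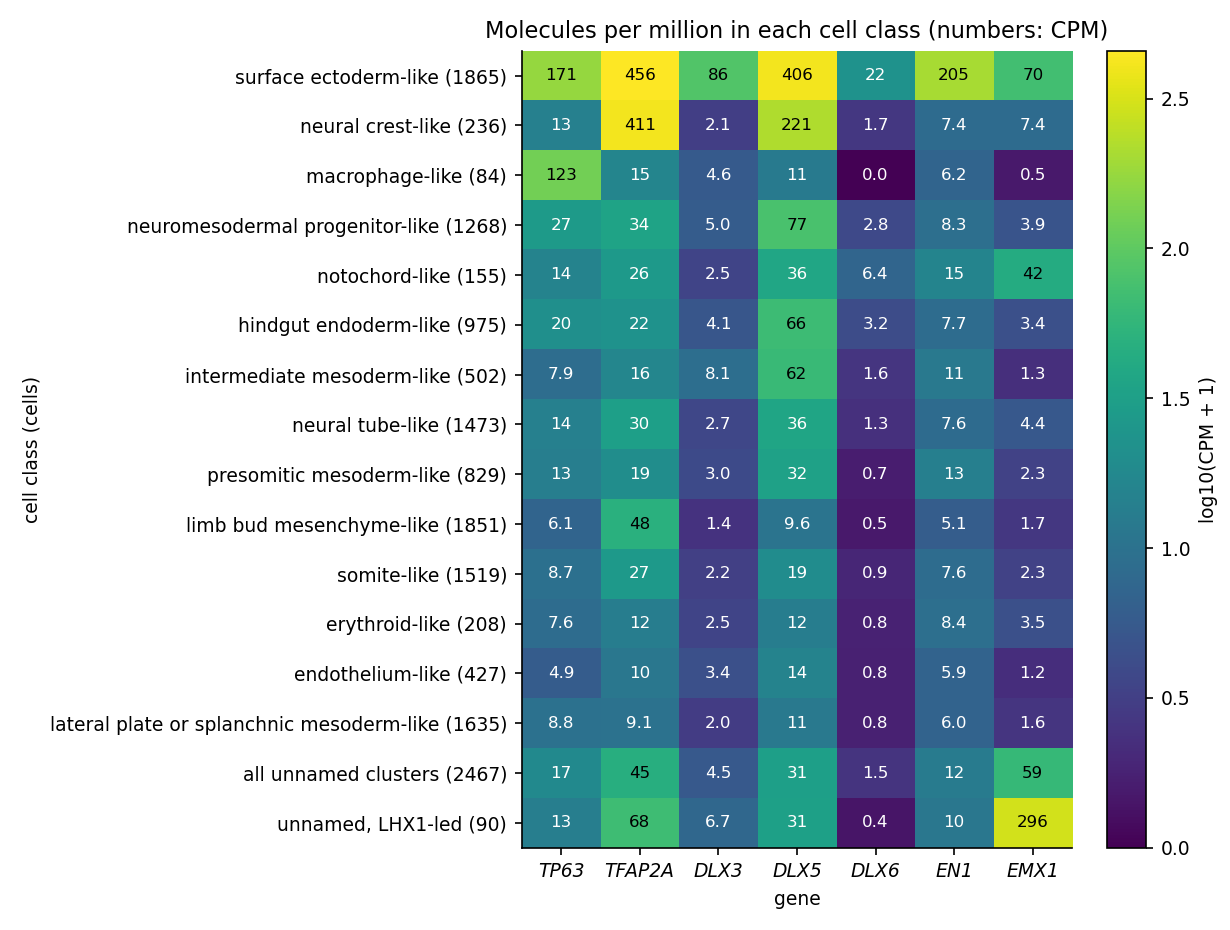
Level of each of the 7 genes in each named cell class, in all unnamed clusters together and in the unnamed LHX1-led cluster, which is part of them. Numbers are CPM, colour is log10(CPM + 1), and cell numbers are in brackets; the top row, surface ectoderm-like, is highest among the named classes in every column, while EMX1 is highest of all in the LHX1-led cluster at 296 CPM.

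TP63 stood at 171 CPM (168 to 174) in surface ectoderm-like cells and 12.9 CPM in all other cells. With each cell thinned to 4000 molecules so that depth is equal, 824 of 1865 surface ectoderm-like cells (44.2%, 41.9 to 46.5%) had a TP63 molecule. Without thinning the share was 83.3%, at a median depth of 25512 molecules. Endothelium-like cells, which should lack TP63, gave 1.64% thinned and 10.1% unthinned at a median of 27519. Surface ectoderm-like cells had 0 to 43 TP63 molecules each, with a median of 4. The 33581 barcodes with under 500 genes, taken as free RNA, held TP63 at 28.9 CPM. Neuromesodermal progenitor-like cells (27.4 CPM) and hindgut endoderm-like cells (20.2 CPM) were at or under that level, and so were the other classes apart from the macrophage-like one. The free RNA level was close to the 33.1 CPM of TP63 over all kept cells. A level under it, here and for the other genes below, does not show that a class lacked the RNA. Within the progenitor-like class a TBXT-led cluster of 675 cells had 37.5 CPM (34.7 to 40.4).

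Macrophage-like cells numbered 84. TP63 was at 123 CPM in them (108 to 140), below the surface ectoderm-like level with no overlap of the intervals and above every other class. A TP63 molecule was found in 26 of the 84 thinned cells (31.0%, 21.3 to 42.0%) and in 61.9% unthinned, at a median of 22263 molecules. The 240 molecules were spread over cells, with at most 15 in any 1 cell. The other 6 genes were low in the same cells, from 0 CPM for DLX6 to 15.4 CPM for TFAP2A, and none of the 26 TP63-positive cells had a thinned molecule of DLX3, DLX6, EMX1 or EN1. CDH1 stood at 8.21 CPM and EPCAM at 19.5 CPM in macrophage-like cells, against 245 and 639 CPM in surface ectoderm-like cells. The TP63 level was 148 CPM in the 68 macrophage-like cells that Scrublet did not call and 130 CPM in the 54 with at most 20% mitochondrial molecules. By lipid barcode it was 98.0 CPM in SBC2 (9 cells), 150 CPM in SBC3 (13), 163 CPM in SBC7 (9) and 113 CPM in 53 cells without an assigned barcode. All 4 sets of cells were above the free RNA level.

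TFAP2A stood at 456 CPM (450 to 461) in surface ectoderm-like cells and at 411 CPM (396 to 427) in the 236 neural crest-like cells. Next came limb bud mesenchyme-like cells at 47.6 CPM, which is under its free RNA level of 77.3 CPM. Within that class 1 cluster of 708 cells, led by LHX2 and GREM1, had 105 CPM (101 to 109). The thinned share of cells with TFAP2A was 77.0% in surface ectoderm-like (95.8% unthinned), 60.6% in neural crest-like (84.3% unthinned, median depth 27290) and 1.87% in endothelium-like cells (16.2% unthinned). In neural crest-like cells it was 278 CPM in SBC2 (16 cells), 360 CPM in SBC3 (33) and 417 CPM in SBC7 (15). Of the 7 genes, TFAP2A had the smallest ratio between its highest and second class.

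DLX5 was also shared with the neural crest-like class. It stood at 406 CPM (401 to 411) in surface ectoderm-like cells, 221 CPM (210 to 233) in neural crest-like cells and 77.1 CPM in neuromesodermal progenitor-like cells, with free RNA at 65.7 CPM. A hindgut endoderm-like cluster of 403 cells led by MNX1 had 95.3 CPM. DLX6, its chromosomal neighbour, was at 21.9 CPM (20.8 to 23.2) in surface ectoderm-like cells and at 1.72 CPM in neural crest-like cells, where none of 236 thinned cells had it, which allows a share of up to 1.27%. Its second class was notochord-like at 6.44 CPM (4.28 to 9.30), from 155 cells. DLX3, a factor of epidermal differentiation, stood at 86.0 CPM (83.7 to 88.3) in surface ectoderm-like cells. Its second class, intermediate mesoderm-like, had 8.06 CPM and lay under the free RNA level of 9.83 CPM. Thinned shares in surface ectoderm-like and endothelium-like cells were 69.0% and 4.92% for DLX5, 26.8% and 0.937% for DLX3, and 7.77% and 0.234% for DLX6. Unthinned, these were 93.6% and 16.9%, 67.7% and 6.56%, and 39.8% and 1.64%.

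EN1 had the largest step between its first and second class, a ratio of 13.9. It stood at 205 CPM (201 to 208) in surface ectoderm-like cells and at 14.7 CPM (11.3 to 18.8) in notochord-like cells, below its free RNA level of 28.9 CPM. Of the 64 EN1 molecules in notochord-like cells, 40 came from 1 cell. The level was 6.69 CPM in the 120 notochord-like cells that Scrublet did not call, so the second place of this class rests on that cell. Of thinned surface ectoderm-like cells 21.4% had EN1 (35.4% unthinned), against 1.17% in endothelium-like cells (13.6% unthinned). Those thinned cells that had it held 3.98 molecules on average, against 1.65 for TP63, and 1 cell had 210 molecules unthinned. Of all surface ectoderm-like cells, 64.6% had no EN1 molecule at full depth.

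EMX1 departed most from the surface ectoderm label. It stood at 69.7 CPM (67.7 to 71.9) in surface ectoderm-like cells and at 42.3 CPM (36.4 to 48.9) in notochord-like cells, both above its free RNA level of 14.2 CPM. Thinned shares were 19.5%, 17.4% and 0 of 427 in surface ectoderm-like, notochord-like and endothelium-like cells, and unthinned shares 50.8%, 49.0% and 3.98%; a count of 0 in 427 allows up to 0.703%. The highest level lay in an unnamed cluster of 90 cells led by LHX1, ADAM8, WNT9B and TSPAN8, of which LHX1 is known from the nephric duct. EMX1 reached 296 CPM there (281 to 312), with 57 of 90 thinned cells positive (63.3%). The level was 338 CPM in its SBC2 cells (13), 254 CPM in SBC3 (21) and 251 CPM in SBC7 (17), and 368 CPM in the 66 cells that Scrublet did not call. TP63 was at 12.8 CPM and EN1 at 10.5 CPM in the cluster, both under free RNA. Where cells were assigned by a marker score per cell instead of by cluster, EMX1 was highest in intermediate mesoderm-like cells at 73.6 CPM, with 68.4 CPM in surface ectoderm-like cells, and the other 6 genes kept surface ectoderm-like as their highest class.

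Of the 13 steps between neighbouring classes when the 14 were ordered by level, the intervals overlapped at 7 steps for DLX5, 8 for TP63 and TFAP2A, 10 for EMX1, 11 for DLX3 and DLX6 and 12 for EN1. For EN1 only the step from surface ectoderm-like to notochord-like cells was free of overlap.

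One unnamed cluster had raised levels of all 7 genes. Its 271 cells, led by WNT7A, SSX2IP and TFAP2B, had a median of 5585 molecules, and Scrublet called 28.4% of them. TFAP2A was at 274 CPM there, DLX5 at 165, EN1 at 99.8, TP63 at 90.4, EMX1 at 48.8, DLX3 at 31.6 and DLX6 at 8.32 CPM, each above its free RNA level. These cells are not counted as surface ectoderm-like below.

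Within the surface ectoderm-like class the genes divided the cells in different ways. The class was split into 8 sub-clusters, again without the 7 genes, and each is named here by its leading genes. EN1 was high in the FGF9- and TPH2-led sub-cluster (339 cells, 707 CPM) and in the CBLN2- and NRG2-led one (162 cells, 759 CPM). It was at 8.43 to 11.8 CPM in the WNT7A-led (305 cells), CXCL12-led (247 cells) and ANGPT2-led (172 cells) sub-clusters, all under its free RNA level. EMX1 ran the other way in most of them, with 145 CPM in the WNT7A-led and 189 CPM in the CXCL12-led cells but 15.3 CPM in the FGF9-led and 1.06 CPM in the CBLN2-led cells. The ANGPT2-led cells were low in both, with EMX1 at 10.4 CPM and EN1 at 11.8 CPM. The OVAL-led cells (180) had intermediate values of both, 64.8 CPM for EMX1 and 69.9 CPM for EN1. So did the MEOX1- and FOXC2-led group, with EMX1 at 44.2 CPM and EN1 at 88.2 CPM. An EFNA5-led sub-cluster of low depth, described below, had EMX1 at 38.8 CPM and EN1 at 151 CPM.

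DLX3 and DLX5 were highest in the CBLN2-led cells, at 266 CPM (248 to 286) and 746 CPM (714 to 778). Leaving aside the MEOX1- and FOXC2-led group and an EFNA5-led group of 138 cells, at a median of 8247.5 molecules and 41.7% mitochondrial molecules, DLX3 was lowest in the CXCL12-led cells at 25.04 CPM and DLX5 in the WNT7A-led cells at 285 CPM. DLX6 was highest in the ANGPT2-led cells at 52.2 CPM (45.7 to 59.3), where DLX5 was at 661 CPM, and lowest of the same 6 at 13.1 CPM in the WNT7A-led cells. TFAP2A varied least over them, from 411 CPM in the ANGPT2-led to 679 CPM in the CXCL12-led cells. The MEOX1- and FOXC2-led group had TFAP2A at 247 CPM, and the EFNA5-led group had it at 323 CPM.

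TP63 set the OVAL-led sub-cluster apart from the rest. These 180 cells, with OVAL, AGR2, ZNF750, SCEL and GRHL3 as leading genes, had TP63 at 30.1 CPM (26.1 to 34.5), close to the free RNA level of 28.9 CPM, and in 7.22% of thinned cells (3.90 to 12.0%). In the other 7 sub-clusters TP63 was at 103 to 290 CPM and in 30.7 to 62.0% of thinned cells. Nearness to the free RNA level does not show that OVAL-led cells lacked TP63. Endothelium-like cells were lower, at 4.92 CPM and 1.64% of thinned cells. At full depth 68.9% of OVAL-led cells had no TP63 molecule at a median of 31805 molecules, against 5.90% of FGF9-led cells at a median of 26801. The other factors were present in the OVAL-led cells, with TFAP2A at 535 CPM, DLX5 at 491 CPM and DLX3 at 85.3 CPM. The surface ectoderm markers, with GRHL3, KRT7 and KRT18 included, summed to 4899 CPM in the OVAL-led cells, the highest of the 8 sub-clusters. That sum is not particular to surface ectoderm, at 2389 CPM in hindgut endoderm-like and 2227 CPM in all surface ectoderm-like cells. Of the single markers, EPCAM was highest in the OVAL-led cells at 1091 CPM. WNT6 was lowest there, at 29.4 CPM against 63.1 to 174 CPM in the other 7 sub-clusters. Scrublet called 15.6% of the OVAL-led cells. COL17A1, a hemidesmosome collagen of basal cells, was at 14.4 CPM there and at 48.0 to 158 CPM in 6 of the other 7. In the EFNA5-led sub-cluster, with a median mitochondrial share of 41.7%, it was at 252 CPM. Other epidermal genes did not all go the same way. ITGA6 was low in the OVAL-led cells, at 50.5 CPM against 61.8 to 225 CPM in the other 7. KRT14 was not, at 68.1 CPM against 16.0 to 69.6 CPM.

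**Figure D2:**
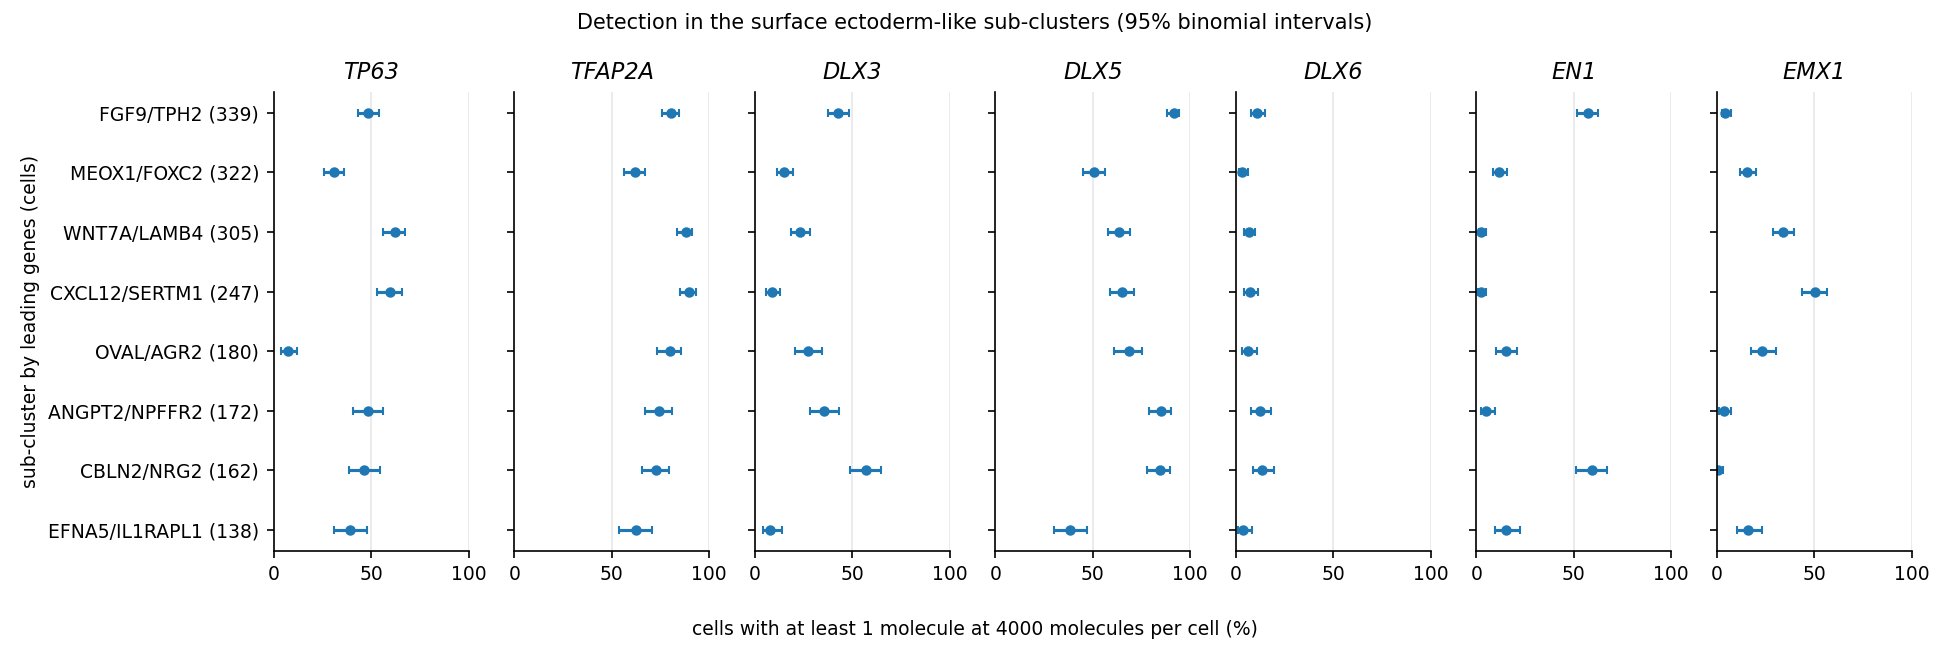
Share of cells with at least 1 molecule of each gene after thinning to 4000 molecules, in the 8 sub-clusters of surface ectoderm-like cells named by their first 2 leading genes, with 95% binomial intervals. TP63 is at 7.22% in the OVAL-led cells, EN1 is above 50% in the FGF9-led and CBLN2-led cells, and EMX1 reaches 50.2% in the CXCL12-led cells.

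TP63-positive cells, meaning cells with a TP63 molecule after thinning, numbered 1499 of 15494 (9.67%). Of them 824 (55.0%, 52.4 to 57.5%) were surface ectoderm-like, 132 unnamed, 124 neuromesodermal progenitor-like and 82 hindgut endoderm-like. This split depended on thinning. Of the 4849 cells with TP63 at full depth, 1554 (32.0%) were surface ectoderm-like. There 567 were neuromesodermal progenitor-like, 546 neural tube-like and 400 hindgut endoderm-like. After thinning, TFAP2A was found with TP63 most often. It was present in 675 of the 824 TP63-positive surface ectoderm-like cells (81.9%, 79.1 to 84.5%), and DLX5 in 585 (71.0%, 67.8 to 74.1%). DLX3 was present in 28.8%, EMX1 in 23.5%, EN1 in 20.5% and DLX6 in 8.62%. In the 1554 surface ectoderm-like cells with TP63 at full depth these shares were 97.7% for TFAP2A, 96.3% for DLX5, 70.5% for DLX3, 53.2% for EMX1, 36.9% for EN1 and 42.9% for DLX6. Among the 675 TP63-positive cells outside the class, unnamed cells included, the thinned shares were far lower, from 0.889% for DLX6 to 18.8% for DLX5. Their median depth was 24298 molecules against 24629 in the class. The 12954 TP63-negative cells outside it had still lower shares of DLX5 (9.60%), TFAP2A (8.47% against 13.9%), DLX3 (1.04% against 4.00%) and EMX1 (1.57% against 5.04%). For DLX6 (0.517%) and EN1 (2.42% against 3.70%) the intervals overlapped.

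Surface ectoderm-like cells without a TP63 molecule after thinning carried most of the same genes. Many of them had TP63 at full depth, where 1554 of the 1865 surface ectoderm-like cells did, against 824 thinned. TP63-negative cells are thus not a group that lacked TP63, and likeness between the groups cannot show that TP63 made no difference. The shares in TP63-positive and TP63-negative cells differed beyond counting error for TFAP2A, 81.9% against 73.1% (70.3 to 75.8%), and for EMX1, 23.5% (20.7 to 26.6%) against 16.3% (14.1 to 18.7%). For DLX5 (71.0% and 67.4%), DLX3 (28.8% and 25.2%), DLX6 (8.62% and 7.11%) and EN1 (20.5% and 22.1%) the intervals overlapped. Without the MEOX1- and FOXC2-led group the shares were 83.9% and 76.9% for TFAP2A, and 24.1% and 17.0% for EMX1. The EMX1 share was higher in cells with more TP63 molecules after thinning, from 16.3% at 0 to 19.6% at 1, 26.0% at 2 and 34.5% (26.0 to 43.7%) at 3 or more, over 1041, 470, 235 and 119 cells. TFAP2A went from 73.1% to 90.8% over the same steps. EN1 had no such order, with 22.1%, 20.0%, 19.6% and 24.4%. Compared within sub-clusters, TP63 and EMX1 met 1.10 times (0.95 to 1.27) as often as the product of their shares gives, against 1.21 times (1.04 to 1.39) over the whole class. For TP63 and TFAP2A the ratio was 1.04 (0.96 to 1.12) within sub-clusters and 1.06 (0.99 to 1.15) over the whole class. Both of these intervals held 1. Pair intervals are Poisson intervals of the joint count and are too wide for a gene found in most cells. Holding 1 does not set aside the difference in TFAP2A shares given above.

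**Figure D3:**
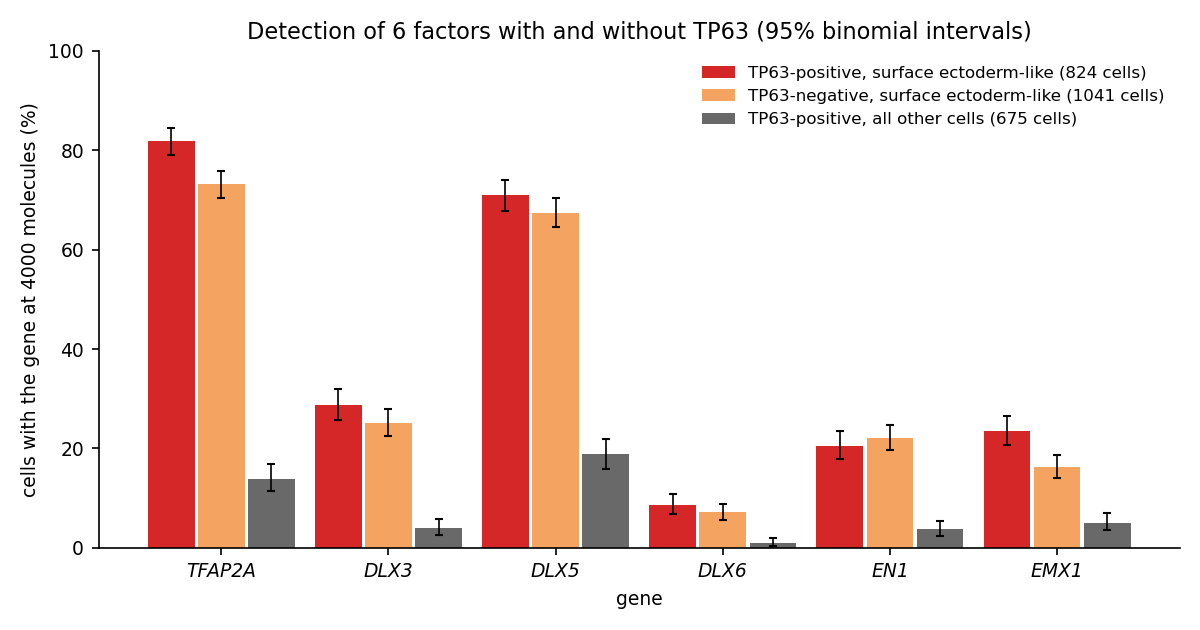
Share of cells with each of the other 6 genes after thinning, in 824 TP63-positive and 1041 TP63-negative surface ectoderm-like cells and in 675 TP63-positive cells outside the class, unnamed cells included, with 95% binomial intervals. TP63-negative means without a TP63 molecule after thinning, and many of these cells had TP63 at full depth. For each gene the third bar is the lowest, at 18.8% or less, and the intervals of the first 2 bars are apart for TFAP2A and EMX1.

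A TP63-positive surface ectoderm-like cell had 2.34 of the other 6 genes on average at 4000 molecules and a TP63-negative one 2.11. A TP63-positive cell outside the class, unnamed cells included, had 0.464. At least 2 others were found in 80.8% of the 824 cells (78.0 to 83.5%) and at least 3 in 43.0%. None of the 6 was found in 4.00%, 8 cells had 5 of the 6, and no cell had all 6. Of 64 possible combinations 38 were seen, and the 5 most frequent held 445 cells (54.0%). DLX5 with TFAP2A and nothing else was the most frequent, in 173 cells (21.0%, 18.3 to 23.9%). TFAP2A alone followed with 80 cells, DLX5, EMX1 and TFAP2A with 78, DLX3, DLX5, EN1 and TFAP2A with 58, and DLX3, DLX5 and TFAP2A with 56. At this depth a missing molecule does not show that a cell lacked the gene.

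After thinning, EN1 and EMX1 rarely met in the same cell. Of the 824 TP63-positive surface ectoderm-like cells, 194 had EMX1, 169 had EN1 and 5 had both, where the product of the shares gives 39.8, a ratio of 0.13 (0.04 to 0.29). Over all 1865 cells 10 had both where 77.9 would be given, again a ratio of 0.13 (0.06 to 0.24). The ratio was 0.13 both without the MEOX1- and FOXC2-led group and without cells called by Scrublet. When the product was taken within each sub-cluster, the ratio was 0.43 (0.14 to 1.003) in TP63-positive cells and 0.32 (0.16 to 0.60) in all 1865. Over 15 alternatives the ratio in TP63-positive cells ran from 0.00 to 0.60. The 0.60 was the value without thinning. At that depth 827 of 1554 TP63-positive surface ectoderm-like cells had EMX1 and 574 had EN1. The pair thus still met less often than the product gives at full depth, but meeting was not rare there.

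EN1 met DLX3 more often than the product gives, in 83 cells where it gives 48.6, a ratio of 1.71 (1.36 to 2.12), and DLX5 in 148 cells at a ratio of 1.23 (1.04 to 1.45). EMX1 met DLX3 less often, in 31 cells at a ratio of 0.56 (0.38 to 0.79). The linked genes DLX5 and DLX6 met in 57 cells, at a ratio of 1.13 (0.86 to 1.47). Of the 15 pairs, the interval lay above 1 for 2, below 1 for 2 and held 1 for 11. These intervals leave out that a joint count cannot exceed either single count, so they are too wide for frequent genes. An interval that held 1 does not show that 2 genes were independent. Within sub-clusters the interval held 1 for all 15, among them DLX3 with EN1 at 1.06 (0.84 to 1.31) and DLX3 with EMX1 at 0.94 (0.64 to 1.33).

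**Figure D4:**
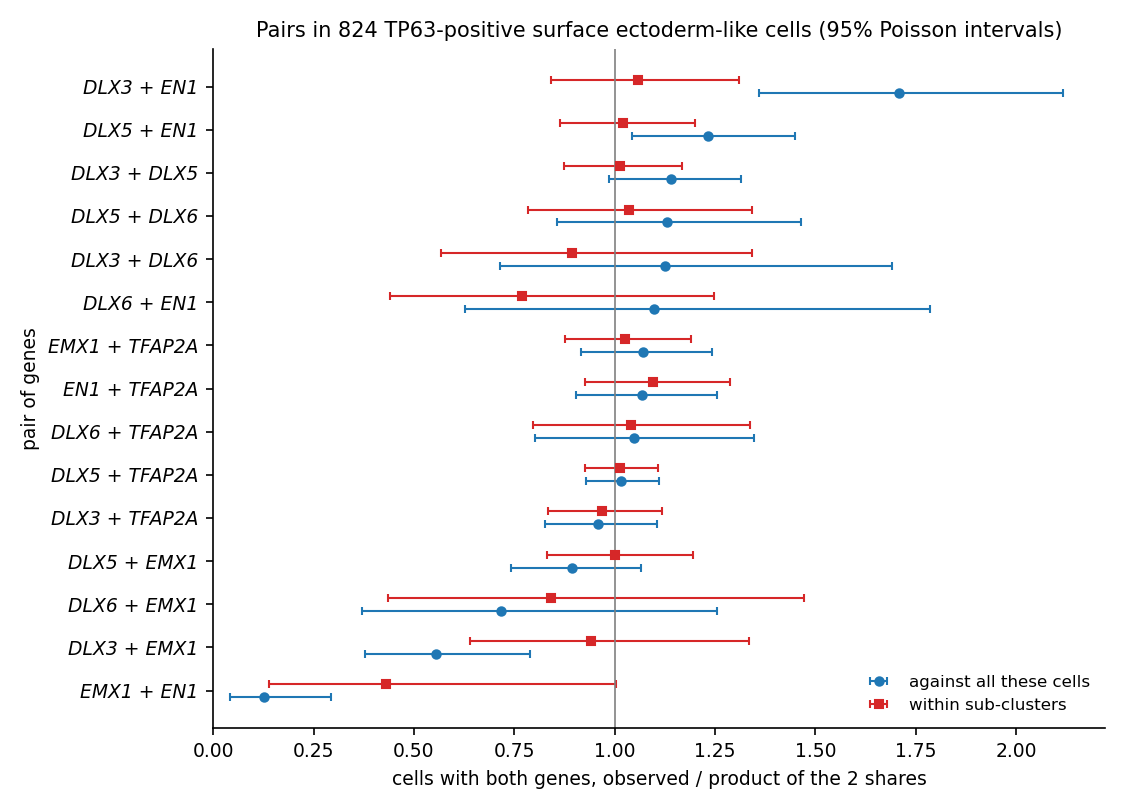
Cells with both genes of a pair over the number that the product of the 2 shares gives, in 824 TP63-positive surface ectoderm-like cells (circles) and with the product taken within the 8 sub-clusters (squares), with 95% Poisson intervals; the grey line marks 1. The pair EMX1 and EN1 is the lowest at 0.13, and the pair DLX3 and EN1 the highest at 1.71.

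The TP63-positive surface ectoderm-like cells with and without EN1 also differed in other genes. Of 11111 genes, 226 (2.03%) were at least 2-fold higher in the 169 cells with EN1 and 349 (3.14%) at least 2-fold lower. HAND1 was at 394 CPM (377 to 411) with EN1 and 40.6 CPM without. KITLG, the ligand of the receptor KIT, was at 224 against 31.9 CPM, and the serotonin receptor gene HTR1B at 112 against 17.1 CPM. EDNRB, an endothelin receptor, was at 24.96 against 3.66 CPM, and WNT9B at 31.9 against 5.11 CPM. APOD was lower with EN1, at 13.6 against 156 CPM, as were SCGN at 6.34 against 74.5 CPM and the retinoic acid-degrading enzyme CYP26C1 at 4.03 against 40.8 CPM. WNT7A stood at 39.3 CPM in the EN1-high FGF9-led cells and 1.41 CPM in the EN1-high CBLN2-led cells. In the sub-cluster led by WNT7A itself EN1 was at 9.49 CPM. EN1 and WNT7A were not opposite in every sub-cluster. WNT7A was at 29.9 CPM in the CXCL12-led and 1.78 CPM in the ANGPT2-led cells, where EN1 was low too (8.43 and 11.8 CPM). The EFNA5-led cells had both, with WNT7A at 99.6 CPM and EN1 at 151 CPM.

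With EMX1 the picture was largely opposite. Of 11024 genes, 86 (0.780%) were at least 2-fold higher in the 194 cells with EMX1 and 207 (1.88%) at least 2-fold lower. APOD was at 230 CPM with EMX1 and 95.3 CPM without, the secreted phosphoprotein gene SPP1 at 187 against 74.0 CPM and SERTM1 at 98.9 against 38.9 CPM. HAND1 was at 20.2 against 142 CPM, CBLN2 at 2.57 against 18.8 CPM and HGF, a growth factor gene, at 3.43 against 41.0 CPM. Cells with DLX3 had more CBLN2 (32.1 against 8.18 CPM), NRG2 (15.0 against 3.56 CPM) and ISL2 (53.6 against 15.4 CPM), with 110 of 11045 genes (0.996%) at least 2-fold higher and 119 (1.08%) lower. Cells with DLX5 had more CBLN2 (19.9 against 3.26 CPM), ISL2 (34.2 against 7.20 CPM) and HTR1B (47.1 against 11.5 CPM), with 101 of 11029 genes (0.916%) at least 2-fold higher and 49 (0.444%) lower. Of 11019 genes, 89 (0.808%) were at least 2-fold higher and 117 (1.06%) lower in cells with DLX6, and of 11052, 28 (0.253%) were higher and 80 (0.724%) lower in cells with TFAP2A. Of the 5 lowest genes in cells with DLX3, HES5, NPY and TBXT differed less when the MEOX1- and FOXC2-led group was left out, with TBXT at 11.4 against 38.2 CPM over all 824 cells and 5.85 against 13.5 CPM without that group. GRM7 (13.3 against 60.0 CPM) and HSD17B2 (13.1 against 45.6 CPM) were still lower with DLX3 without it, by 4.52-fold and 3.48-fold. Among the 5 lowest with DLX5, PDZK1IP1 and FAM84A were still 3.46-fold and 3.16-fold lower without that group, while ACTA2, LMO2 and NPY differed less. ACTA2 was at 16.1 CPM with DLX5 and 64.8 CPM without over all 824 cells, and at 9.36 against 12.0 CPM when that group was left out.

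Relatives of the 7 genes were high in the same class in part. Unlike the 7, these listed genes took part in the clustering. Of 8 family members outside the set with a value, 5 were at least 2-fold higher in surface ectoderm-like cells, beside 6.49% of all genes tested. TFAP2B was at 219 CPM, TFAP2C at 178 CPM, TFAP2E at 58.9 CPM, EMX2 at 20.7 CPM and the p63 relative TP73 at 17.5 CPM, which were 4.73-fold (EMX2) to 12.7-fold (TFAP2C) higher than in all other cells. DLX1, DLX2 and EN2 stood at 0.700, 2.10 and 1.66 CPM, within 2-fold of the rest. The median log2 ratio of the 8 was 2.41, and that of all genes tested was -0.03.

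Of 15 epidermal and p63-linked genes with a column, 13 had at least 100 molecules. Of these, 11 were at least 2-fold higher, beside 6.49% of all genes tested, with a median log2 ratio of 2.44. KRT5 and PKP1 had fewer molecules and were not tested. Over the sub-clusters KRT5 was at 0 to 0.226 CPM and PKP1 at 0 to 2.64 CPM. COL17A1 was at 86.2 CPM (34.7-fold), the integrin gene ITGA6 at 110 CPM (6.19-fold), the desmosome gene DSP at 607 CPM (4.51-fold) and KRT14 at 39.5 CPM (12.4-fold). KLF4 (1.19-fold) and TFCP2L1 (1.32-fold) were under the threshold. Of 15 ectoderm patterning genes, 5 were higher and 1 was lower, beside 6.49% and 7.42% of all genes tested. Their median log2 ratio was 0.20. MSX2 was at 1097 CPM (4.08-fold), BMP7 at 315 CPM (3.99-fold), GATA2 at 178 CPM (3.33-fold), SP8 at 132 CPM (5.41-fold) and WNT7A at 97.6 CPM (64.5-fold). RSPO2 was lower, at 11.8 against 42.3 CPM, and FGF8 was at 44.0 against 77.7 CPM, within 2-fold. Besides the 7 genes, MSX2 also varied inside the class, from 252 CPM in the EFNA5-led cells to 3273 CPM in the CBLN2-led cells where DLX3 and DLX5 were highest. TFAP2B went from 31.8 CPM in the ANGPT2-led to 511 CPM in the WNT7A-led cells.

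Over 30 clusters, the genes whose levels were most like each of the 7 were found among 10756 genes by Pearson's r of log CPM, given as a description, since the clusters share libraries and depth. TP73 was most like TP63 (r = 0.87), followed by WNT6 (0.85). TFAP2C was most like both TFAP2A (0.92) and DLX5 (0.84), and TFAP2B was second for TFAP2A (0.87). The basic helix-loop-helix gene BHLHA9 was most like DLX3 (0.94), CAMK4 most like DLX6 (0.91), WISP1 most like EN1 (0.86) and GNG4 most like EMX1 (0.90). Among the 7 themselves the highest values were 0.88 for DLX5 with DLX6, 0.87 for DLX3 with DLX6 and 0.85 for DLX3 with EN1, and the lowest was 0.51 for TP63 with EMX1.

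Cells were assigned to a lipid barcode where 1 barcode clearly led, which was so for 8088 cells (52.2%) and 3 barcodes, SBC2, SBC3 and SBC7. Surface ectoderm-like cells made up 10.6% of SBC2 (294 of 2768), 12.5% of SBC3 (467 of 3733) and 10.2% of SBC7 (162 of 1587). A further 942 surface ectoderm-like cells had no assigned barcode and are not in the barcode levels. This was uneven, with 151 of the 172 ANGPT2-led and 175 of the 247 CXCL12-led cells unassigned. TP63 was at 122 CPM (114 to 130) in SBC2, 164 CPM (159 to 170) in SBC3 and 159 CPM (150 to 168) in SBC7 surface ectoderm-like cells, so that the last 2 overlapped. EN1 was at 169, 217 and 352 CPM, and its intervals did not overlap. EMX1 was at 60.3, 86.3 and 45.2 CPM, and DLX3 at 108, 82.2 and 66.6 CPM, again with no overlap among the 3. DLX5 was at 414 and 402 CPM in SBC2 and SBC3, which overlapped, and at 335 CPM in SBC7. TFAP2A was at 462 CPM (446 to 478) in SBC2, above 408 CPM (399 to 417) in SBC3 and 423 CPM (408 to 439) in SBC7. DLX6 was at 23.1, 19.7 and 16.8 CPM.

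The thinned share of cells with EN1 was 20.7% (16.3 to 25.8%) in SBC2, 27.0% (23.0 to 31.3%) in SBC3 and 34.0% (26.7 to 41.8%) in SBC7, and that of TP63 was 39.1%, 40.0% and 39.5%. Sub-clusters and depth moved with the barcodes. The EFNA5-led group of low depth made up 26.9% of SBC2, 1.28% of SBC3 and 15.4% of SBC7 surface ectoderm-like cells, and the OVAL-led cells 19.0%, 13.3% and 8.64%. The MEOX1- and FOXC2-led group, which the barcode levels include, made up 8.84%, 25.3% and 25.3%. The EN1-high FGF9-led cells made up 8.50%, 24.2% and 19.1%. The CBLN2-led cells, high in EN1 and highest in DLX3, made up 16.0%, 5.35% and 8.64%. Of the EMX1-high sub-clusters, the WNT7A-led cells made up 8.50%, 20.6% and 16.7%, and the CXCL12-led cells 6.80%, 9.21% and 5.56%. ANGPT2-led cells made up 5.44%, 0.857% and 0.617%. The median depth was 16098, 35390 and 37250.5 molecules. The part of these in the barcode differences was not tested, and each barcode is a single set of cells, so embryo, treatment, dissection and depth cannot be told apart.

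**Figure D5:**
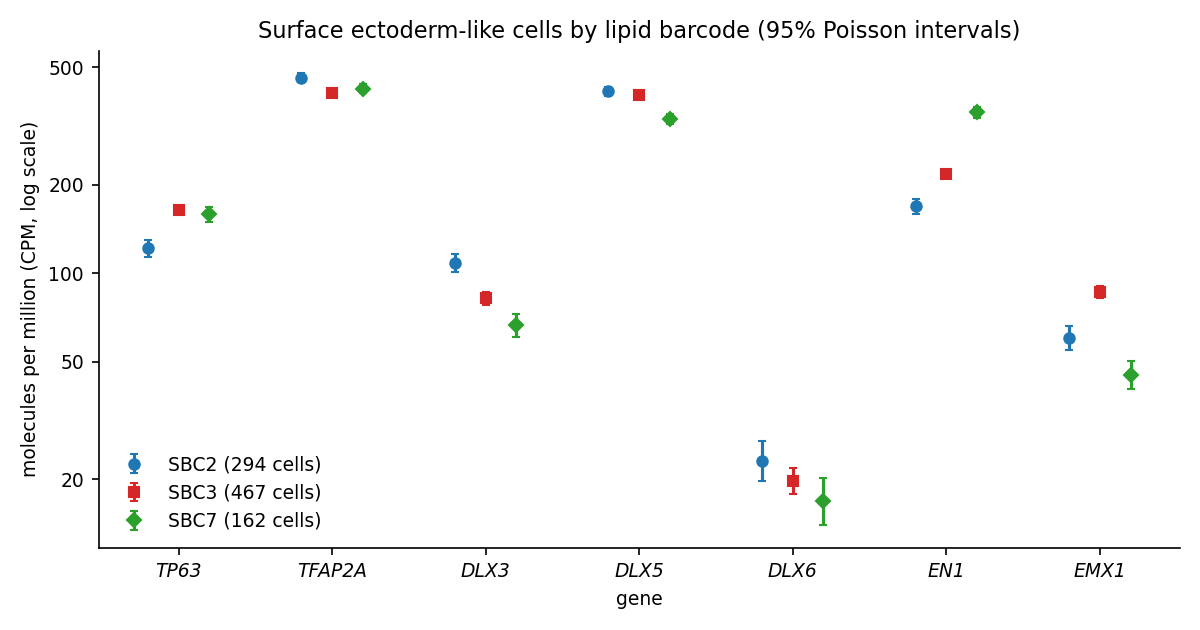
CPM of the 7 genes in surface ectoderm-like cells of the lipid barcodes SBC2, SBC3 and SBC7 on a log axis, with 95% Poisson intervals that cover counting error only. EN1 goes from 169 CPM in SBC2 to 352 CPM in SBC7 and DLX3 from 108 to 66.6 CPM. DLX5 is lower in SBC7, at 335 CPM, than in the other barcodes, and TFAP2A is higher in SBC2, at 462 CPM.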

How the data were processed

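The authors deposited 1 table of counts, distinct molecules per gene and cell barcode, made with the BD Rhapsody pipeline 1.11 on GRCg7b with Ensembl 107 annotation, introns included and the number of barcodes set to 60000, per the file headers. The submitters' processing notes also name R 3.6.2 and Seurat. Intronic molecules add nuclear RNA, and counts were not normalized. The lipid barcode columns of the same table served to assign cells. No values were left unmapped.

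Barcodes with at least 4000 gene molecules were kept. With scanpy 1.11.5 cells were scaled to 10000 molecules, and 2000 variable genes, 30 components, 15 neighbours and Leiden at resolution 1 were used, leaving out the 7 genes. A cluster took the class with the highest mean log2 fold of its markers if at least 3 were 2-fold up and in 10% of cells. Scrublet ran at an expected rate of 0.1. A lipid barcode was assigned at 5 times its background and 3 times the next.

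CPM used summed counts with exact Poisson intervals, and shares used exact binomial (Clopper-Pearson) intervals after thinning to 4000 molecules. Pair ratios used Poisson intervals of the joint count with the product held fixed. A count of 0 was bounded by 3 counts. Log2 ratios used a pseudocount of 1 CPM. Genes were named by rule: the 7 genes, the listed genes, the 5 most alike over clusters and the 5 highest and lowest by ratio inside TP63-positive cells among genes in at least 10% of cells. KLF4, TFCP2L1, KRT5, PKP1, RSPO2 and FGF8 were named after their values were seen. A listed gene that the naming rule selects is not reported here. Calculations were tested on simulated data. The 7 genes, lists and alternatives were chosen with earlier results of these data known.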

Additional observations from a re-analysis of the deposited data

Results flagged for a closer look

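Molecules of all 7 genes were also present outside the cells analysed, in the 44506 barcodes with under 4000 gene molecules, which held 30550153 gene molecules in all. TP63 had 921 molecules there (30.1 CPM), TFAP2A 2461 (80.6 CPM), DLX5 2301 (75.3 CPM) and EN1 1057 (34.6 CPM). DLX3 had 426 (13.9 CPM), EMX1 442 (14.5 CPM) and DLX6 120 (3.93 CPM). Each count is above the 3 that a count of 0 allows. They were singled out because these barcodes enter no comparison of the report.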

How the results depend on the processing

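In all, 18 alternatives were run. Surface ectoderm-like cells were the highest named class for 7 of 7 genes in 12 of the 13 that bear on class levels and for 6 with the per-cell marker score. The share of surface ectoderm-like cells with TP63 (44.2%) was 28.2% with cells of at least 2000 molecules kept. That alternative also thinned cells to 2000 molecules and not 4000, so the cell filter and the thinning depth changed together. The share was 48.0% with at most 20% mitochondrial molecules and 50.4% without the 10% highest Scrublet scores. Without cells with 2 or 3 lipid barcodes it was 48.8%, and not thinned 83.3%. The share of TP63-positive surface ectoderm-like cells with at least 2 other genes (80.8%) was 55.4% in the alternative thinned to 2000 molecules. It was 83.9% with cells of at least 10000 molecules, 84.0% with at most 20% mitochondrial molecules and 76.2% with an assigned lipid barcode only. Not thinned it was 97.7%, and with TP63 at 2 molecules or more 85.6%. Chosen after seeing the data, leaving out cells called by Scrublet and clustering again gave a TP63 share of 50.3%, or 47.6% with the classes kept as they were, and leaving out the MEOX1- and FOXC2-led sub-cluster gave 47.0% and, for joint detection, 84.3%. Thresholds of 4-fold and of 20 molecules gave 451 and 1719 genes in place of 1233. Of 293 single values, 185 stayed within counting error, 108 moved and 0 reversed. Only the log2 ratios of surface ectoderm-like over all other cells could count as reversed, by a change of sign. Shares, CPM and pair ratios could only stay or move. TP63 in macrophage-like cells ran from 110 to 148 CPM. Depth limits the shares, since a gene with few molecules per cell is missed in most cells at 4000 molecules. No paired analysis was possible because the 2 libraries come from the same pooled cells and no labels give replicates.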
